A study of Mus musculus with 16 samples.

Results

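The 6 genes described here encode subunits and regulators of calcineurin, the phosphatase that is switched on by calcium and calmodulin. Ppp3ca, Ppp3cb and Ppp3cc encode the alternative catalytic subunits, and Ppp3r1 encodes the regulatory subunit of brain. Rcan1 and Rcan2 encode proteins that bind and restrain the enzyme. All 6 were chosen by gene name, with their gene reads and isoform shares in these samples already known, and are 6 of the 24960 annotated genes listed. The samples were long-read RNA-seq libraries (PacBio Iso-seq) from the cortex and striatum of male mice at 3 months of age. R6/2 mice (B6CBA-Tg(HDexon1)62Gpb/3J), a model of Huntington's disease (HD), carry a transgene with exon 1 of the human HTT gene and an expanded CAG repeat, driven by the human HTT promoter, on top of their own Htt genes. Non-transgenic (NT) mice were the controls, and each of the 4 groups held 4 samples, 16 in all.

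Calcineurin is a dimer of a catalytic and a regulatory subunit. A rise in calcium loads calmodulin, which binds the catalytic subunit and moves its autoinhibitory segment away from the active site, and the enzyme then removes phosphate from the NFAT transcription factors, DARPP-32, dynamin and other proteins of the synapse. The enzyme is abundant in neurons, is the target of cyclosporin and FK506, and is known for its part in synaptic depression and in dopamine signaling of the striatum. Rcan1 is also a target gene of NFAT, so that it takes part in a feedback loop.

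Each deposited value is a count of full-length reads of one isoform, and gene reads are summed over known isoforms, incomplete splice matches (ISM, reads that hold part of a known chain of splice junctions) and new isoforms that join known splice sites (NIC) or use at least one unknown site (NNC). Totals per sample ran from 252885 to 808814 reads for cortical libraries and from 317050 to 1496196 for striatal ones. In the striatum NT 1, NT 2, R6/2 2 and R6/2 3 came with 2 sets of counts, which were summed. The sources used here do not say whether the 2 sets are repeat runs of 1 library or separate mice, and each of these samples was counted once in n. These 4 samples had 917832 to 1496196 reads and a mean isoform length of 2141 to 2225 nt, against 317050 to 811470 reads and 1618 to 1885 nt in the other 4. The labels do not state that the samples are separate mice, so that errors and p values cover the spread between these samples. Markers of striatal projection neurons, 9 genes, summed to 10530 to 14440 CPM (reads scaled to the normalized library) in striatum NT and to 391.5 to 487.6 in cortex NT, and 6 markers of cortical excitatory neurons to at most 46.01 in the striatum and at least 112.7 in the cortex, which is the order that the labelled tissues call for. In R6/2 mice the first list was lower, at 1973 to 3412 CPM in the striatum and 99.73 to 135.7 in the cortex, and none of its genes was at 0 in any group. Without Penk, its most abundant gene, it was at 4627 to 8400 CPM in striatum NT and 1386 to 2593 in striatum R6/2. A list of 5 astrocyte genes was also lower in R6/2 mice, but in the striatum Aldoc made up most of the sum (1543 to 3144 CPM in NT and 857.6 to 1153 in R6/2), and the other 4 genes together overlapped (335.2 to 909.8 and 400.6 to 691.7 CPM). A list of 5 interneuron genes held Gad1, which projection neurons of the striatum express too, and without it the striatal genotypes overlapped (179.2 to 787.3 and 73.13 to 351.4 CPM). In the cortex both lists were lower without these genes as well, at 666.0 to 986.7 against 496.6 to 601.0 CPM for astrocytes and 341.5 to 583.8 against 171.9 to 215.8 CPM for interneurons. In such bulk tissue, fewer cells of a type and less RNA per cell cannot be told apart. Choroid plexus genes stood apart at 9626 CPM in striatum NT 3 and at 996.7 to 1642 CPM in cortex NT 4, R6/2 2 and R6/2 3, with 17.98 to 335.2 CPM in the other samples. Ttr made up nearly all of the high sums (up to 9556 CPM), and without it all samples were at 7.372 to 70.6 CPM.

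Ppp3ca, the catalytic subunit alpha, was the one member whose genotypes did not overlap in gene reads. How often groups of 4 samples separate in this way over all genes, isoforms or exons was not counted. The Ppp3ca gene (ENSMUSG00000028161, mm10 chr3:136670124-136937727, plus strand) had 6304 reads over the 16 samples. In the cortex the NT samples held 336.7, 718.5, 549.0 and 566.3 CPM and the R6/2 samples 305.5, 269.8, 312.3 and 237.4 CPM. All 4 R6/2 samples lay below all 4 NT samples, with means of 542.6 ± 157.0 and 281.2 ± 34.67 CPM (SD, n = 4 each), and the log2 fold change of R6/2 over NT was −0.95 ± 0.22 (standard error of the edgeR fit). In the striatum the NT samples held 884.5, 1768, 798.9 and 720.4 CPM and the R6/2 samples 353.6, 376.1, 488.8 and 283.3 CPM. Again no R6/2 sample reached the lowest NT sample, with means of 1043 ± 488.0 and 375.4 ± 85.28 CPM and a log2 fold change of −1.47 ± 0.34. NT 2 was far above the other NT samples of the striatum, in both of its sets of counts (1755 and 1736 CPM of the set), and the log2 fold change was −1.08 without it. Among the striatal samples with 1 set it was −1.25, and among those with 2 sets −1.62. The difference between the regions in the effect of genotype was −0.50 ± 0.44 on the log2 scale. The striatal projection neuron list was lower in the same R6/2 samples, in both regions, and its part in the Ppp3ca difference was not tested.

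**Figure D1:**
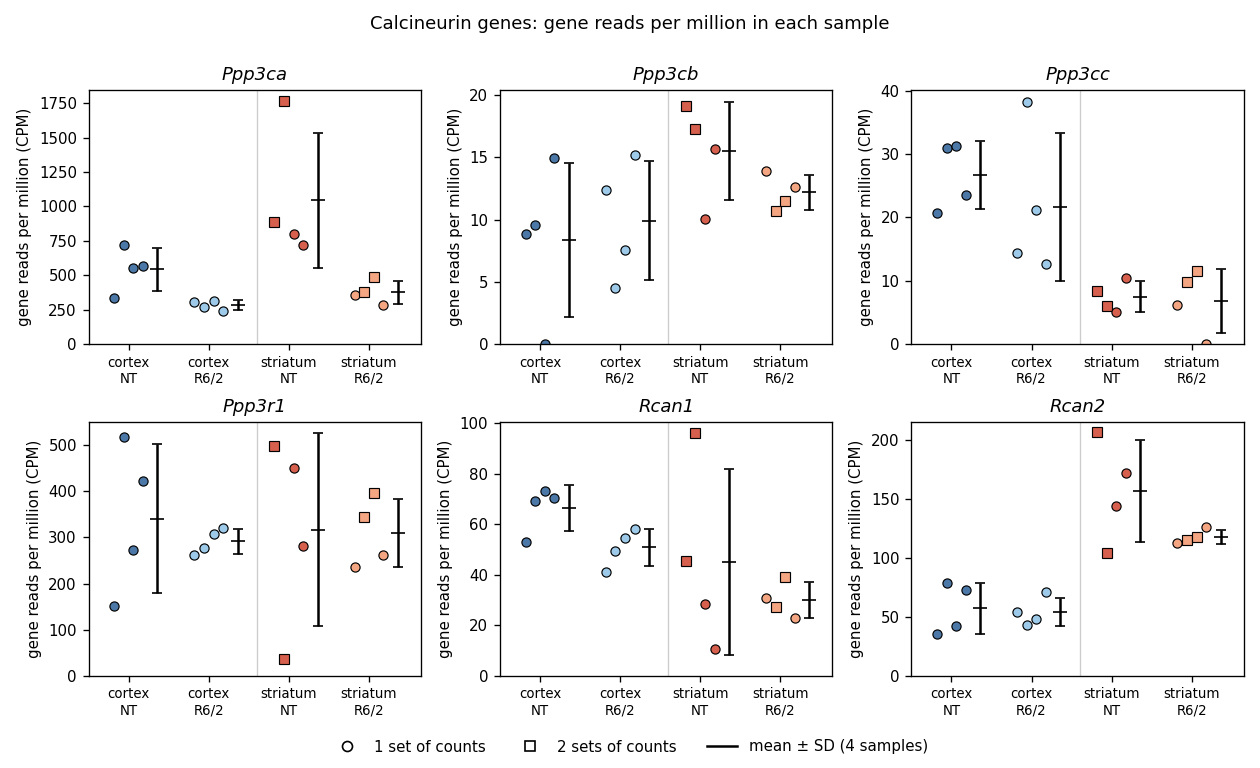
CPM (linear axes from 0) of the 6 members in each sample, with circles for samples with 1 set of counts, squares for those with 2 sets, and bars for the mean ± SD of the 4 samples of a group. The R6/2 samples of Ppp3ca lie below the NT samples in both regions, at 237.4 to 312.3 against 336.7 to 718.5 CPM in the cortex and 283.3 to 488.8 against 720.4 to 1768 CPM in the striatum, whereas the genotypes of the other 5 genes overlap.

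The complete reads of Ppp3ca, those of known, NIC and NNC isoforms, were dominated by a pair of annotated isoforms told apart by one short internal exon. The 14-exon isoform ENSMUST00000056758 (2194 nt) held 4672 reads (84.99% of the 5497 complete reads) and the 13-exon isoform ENSMUST00000070198 (4758 nt) held 517 reads (9.405%). By these annotated lengths the forms also differ outside the exon, and the counts do not show where reads end. The exon that tells them apart is exon 13, at chr3:136932011-136932040 (mm10, plus strand), which is 30 nt long, lies within the coding sequence and adds 10 codons without a change of frame. It encodes a stretch between the calmodulin-binding and the autoinhibitory segments. The exon is shown in capitals between the 30 bases of mRNA on either side, together with the junction made by skipping, since the counts of these forms are the reads compared next, and with exon 13 of the other catalytic subunits (Ppp3cb, chr14:20503247-20503276, and Ppp3cc, chr14:70220017-70220046, both on the minus strand). All are from GENCODE M21 transcripts of mm10, 5′ to 3′.
Ppp3ca, exon 13 included: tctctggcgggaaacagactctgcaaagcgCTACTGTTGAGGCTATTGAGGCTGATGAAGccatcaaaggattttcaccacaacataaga
Ppp3ca, exon 13 skipped: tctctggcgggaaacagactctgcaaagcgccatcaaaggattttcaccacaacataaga
Ppp3cb, exon 13: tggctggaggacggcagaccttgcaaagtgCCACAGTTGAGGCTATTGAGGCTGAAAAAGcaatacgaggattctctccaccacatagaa
Ppp3cc, exon 13: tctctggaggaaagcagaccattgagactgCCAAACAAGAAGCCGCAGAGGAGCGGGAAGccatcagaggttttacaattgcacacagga
All 3 genes have a 30-nt exon at this place, also within the coding sequence. The exon of Ppp3ca matched that of Ppp3cb at 26 of 30 bases and that of Ppp3cc at 14 of 30, whereas the flanks matched at 41 and 40 of 60 bases. The 2 paralogs thus differed in how closely the exon matched, and hardly in how closely the flanks did.

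Skipping of exon 13 was rare in the NT striatum and several times as frequent in the R6/2 striatum. The share of skipping reads among reads of the 2 annotated forms was 6.171% (of 632 reads), 5.124% (of 2049), 3.693% (of 352) and 5.435% (of 92) in striatum NT. It was 23.76% (of 181 reads), 23.19% (of 332), 15.44% (of 447) and 22.89% (of 83) in striatum R6/2. The groups did not overlap. Of the Wilson 95% intervals, the highest bound in NT was 12.1% and the lowest in R6/2 was 12.38%. These intervals cover counting error only and take reads as independent, which reads of PCR-amplified cDNA are not. They give no test of the genotypes. Means were 5.106 ± 1.039% and 21.32 ± 3.937% (SD, n = 4 each), 16.21 percentage points apart. The difference was 18.76 points among samples with 1 set of counts and 13.67 among those with 2 sets. Within the samples with 2 sets, skipping was 5.573% and 6.796% in the sets of NT 1, 5.966% and 4.23% in NT 2, 27.56% and 20.49% in R6/2 2, and 12.9% and 17.83% in R6/2 3, so that each set placed its sample on the same side.

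In the cortex the genotypes overlapped. Skipping was 13.75%, 11.02%, 11.94% and 15.64% in cortex NT (67 to 245 reads) and 11.54% (of 104 reads), 16 of 80 reads, 17.09% (of 158) and 17.11% (of 76) in cortex R6/2, with means of 13.09 ± 2.045% and 16.43 ± 3.538% and a difference of 3.347 points, which is within the spread of the R6/2 samples. Between the NT regions, all cortical samples lay above all striatal samples, and between the R6/2 regions the ranges overlapped. Skipping was thus lowest in striatum NT and at overlapping levels in the other groups.

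Scaled to the library, the 2 forms moved differently in the striatum. The including form held 707.8, 1459, 566.6 and 454.2 CPM in striatum NT and 213.1, 247.8, 361.6 and 161.9 CPM in striatum R6/2. The skipping form held 46.55, 78.83, 21.73 and 26.1 CPM in NT and 66.4, 74.83, 66.0 and 48.06 CPM in R6/2. The including form was lower in all R6/2 samples, with means of 796.9 ± 453.4 and 246.1 ± 84.7 CPM, while the ranges of the skipping form overlapped, with means of 43.3 ± 26.04 and 63.82 ± 11.27 CPM. In the cortex the including form was at 203.8 to 520.4 CPM in NT and at 143.9 to 198.6 CPM in R6/2, and the skipping form at 32.49 to 70.52 and 24.77 to 40.93 CPM, so that again the genotypes separated in the including form and overlapped in the skipping form. No test is given for these values or for the gene reads and shares of the other members, which chose the genes. Over all annotated cassette exons with enough reads, 0.387% of 517 exons of cortical libraries differed between genotypes and 0% of 764 of striatal ones. The test was edgeR diffSpliceDGE at an adjusted p under 0.05, with 28 and 19 exons at an unadjusted p under 0.05. The Ppp3ca exon, with 3798 including and 370 skipping reads in the striatum, was among those tested and was not called there. With no striatal exon called, the missing call does not show equal skipping.

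**Figure D2:**
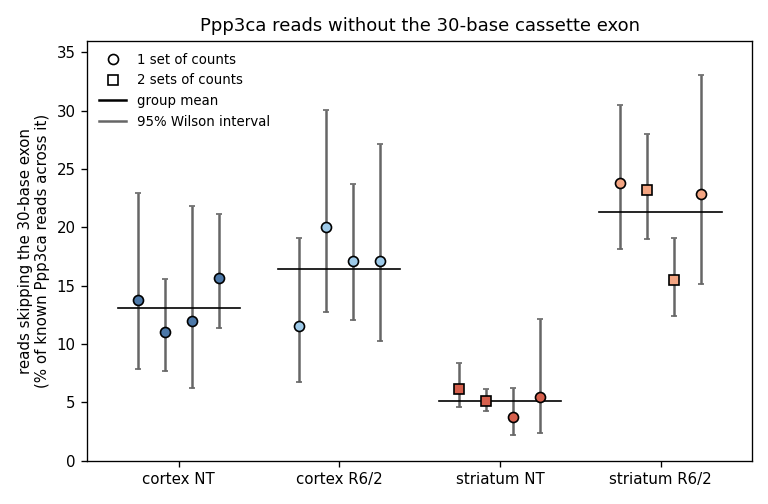
Share of Ppp3ca reads that skip exon 13 (percent of reads of the 2 annotated forms) in each sample, with Wilson 95% intervals as bars and the mean of each group as a line. Striatum NT samples lie at 3.693% to 6.171% and striatum R6/2 samples at 15.44% to 23.76%, while both cortical groups lie above all striatum NT samples, from 11.02% upwards.

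Of the unannotated isoforms of Ppp3ca, which made up 5.239% of its complete reads, 6 had at least 10 reads. A 14-exon NNC isoform of 2469 nt had 27 reads, of which 4, 16, 6 and 0 were in striatum NT 1 to 4 and 1 was in cortex NT 4. None was found among 1082 complete reads of striatum R6/2, which allows a share of up to 0.277% if the pooled reads were independent. In striatum NT the form held 0.779% of 3336 reads, of which 2175 were from NT 2. The limit leaves out the spread between samples, so that no difference between genotypes is drawn from it. A second NNC isoform of 14 exons and 2160 nt had 2, 12, 2 and 0 reads in striatum NT 1 to 4 and none elsewhere, which allows the same share in striatum R6/2. Both forms were thus seen in 3 of the 4 NT samples of the striatum, with most reads in NT 2, the sample with most reads of the gene. A NIC isoform of 2838 nt was spread over all groups, with 3, 1, 13 and 5 reads in cortex NT, cortex R6/2, striatum NT and striatum R6/2. The exons of these new forms are not given in the data used here.

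Incomplete reads of Ppp3ca, 12.8% of its gene reads, were mostly reads that reach the 3′ end and lack 5′ exons (79.68% of its ISM reads). Their share was 28.07%, 13.95%, 30.48% and 14.34% in cortex NT, 25.0%, 30.83%, 19.9% and 15.96% in cortex R6/2, 8.637%, 7.643%, 19.25% and 28.99% in striatum NT, and 18.34%, 12.66%, 8.219% and 21.43% in striatum R6/2. The 4 lowest of the striatum were the samples with 2 sets. No difference between genotypes was called in the test on ISM against other reads (edgeR, adjusted p = 0.9999 in the cortex and 1 in the striatum). No gene was called in that test (0% of 5996 cortical and 0% of 7681 striatal genes, with 114 and 44 at an unadjusted p under 0.05).

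A further 1720 reads overlapped Ppp3ca without a matching splice structure (the genomic class of TALON, not counted in gene reads), 21.44% of all reads at the gene. Their share was 43.56%, 28.16%, 31.82% and 34.24% in cortex NT and 48.43%, 49.37%, 37.0% and 49.73% in cortex R6/2. It was 8.856%, 6.213%, 28.97% and 47.33% in striatum NT and 28.44%, 16.59%, 10.19% and 42.86% in striatum R6/2, where the samples with 2 sets were the 4 lowest. In a test added after the data were seen the share was not called different between genotypes (edgeR, adjusted p = 1 in the cortex and 0.9999 in the striatum). Here 0% of 5169 cortical and 0% of 6808 striatal genes were called, with 83 and 37 at an unadjusted p under 0.05. On the CPM scale the genomic reads of the cortex were at 273.2 ± 18.34 in NT and 242.1 ± 44.52 in R6/2 (SD, n = 4 each), and adding them to the gene reads gave a log2 fold change of −0.63 in place of −0.95. Of these reads 34.42% belonged to a single-exon form of 361 nt, which was at 150.8 ± 42.46 CPM in cortex NT, 136.5 ± 25.31 in cortex R6/2, 55.82 ± 67.98 in striatum NT and 14.46 ± 15.81 in striatum R6/2. The form was thus at overlapping levels in the cortical genotypes, in which the spliced reads of the gene differed.

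The other catalytic subunits had few reads. Ppp3cb, the beta subunit (ENSMUSG00000021816, chr14:20499364-20546573, minus strand), had 118 reads, and Ppp3cc, the gamma subunit (ENSMUSG00000022092, chr14:70217865-70289471, minus strand), had 126. Ppp3cb was at 8.86, 9.549, 0 and 14.96 CPM in cortex NT, 12.39, 4.497, 7.58 and 15.15 in cortex R6/2, 19.1, 17.27, 10.03 and 15.66 in striatum NT, and 13.9, 10.69, 11.48 and 12.65 in striatum R6/2. These values come from 0 to 23 reads a sample, the genotypes overlapped in both regions, and the log2 fold changes, 0.02 ± 0.58 in the cortex and −0.34 ± 0.41 in the striatum, are from fits without the filter on low counts, which left the gene out. Of its reads 74.58% were ISM, and 89.77% of these reached the 3′ end only, so that 30 complete reads remained. They were shared by 14 isoforms, of which ENSMUST00000161445, with 10 reads, had most, and exon 13 of Ppp3cb cannot be followed at this depth. Another 146 reads of Ppp3cb were of the genomic class.

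Ppp3cc was at 20.67, 31.03, 31.37 and 23.51 CPM in cortex NT and at 14.45, 38.22, 21.22 and 12.63 in cortex R6/2. In the striatum it was at 8.356, 6.007, 5.014 and 10.44 CPM in NT and at 6.176, 9.718, 11.48 and 0 in R6/2. The genotypes overlapped in both regions, with log2 fold changes of −0.27 ± 0.36 in the cortex and 0.24 ± 0.58 in the striatum (without the filter). The striatal value has the opposite sign to the difference of the means, 7.454 ± 2.434 CPM in NT and 6.844 ± 5.068 in R6/2, and gives no direction. All cortical NT samples lay above all striatal NT samples, and the log2 fold change of striatum over cortex in NT was −1.76 ± 0.51. Its 14-exon isoform ENSMUST00000078434, which includes exon 13, held 72 of 101 complete reads, and 9 new isoforms that each reached 5% in the mean of some group had 1 to 3 reads each. Unlike in the other members, most of the 25 ISM reads (80.0%) lacked the 3′ part of the chain.

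Ppp3r1, the calcium-binding regulatory subunit (ENSMUSG00000033953, chr11:17159263-17200375, plus strand), had 2914 reads, and its genotypes overlapped in both regions. The cortical values were 150.6, 518.0, 271.9 and 423.1 CPM in NT and 262.2, 276.5, 307.7 and 320.7 CPM in R6/2, and the R6/2 range lay within the NT range (log2 fold change −0.24 ± 0.26). In the striatum they were 497.8, 36.04, 451.3 and 281.9 CPM in NT and 236.2, 345.0, 397.0 and 263.0 CPM in R6/2 (−0.03 ± 0.60). Striatum NT 2, which held most Ppp3ca, held least Ppp3r1, in both of its sets of counts (30.21 and 41.29 CPM of the set, against 523.7 and 486.7 in the sets of NT 1). Without it the log2 fold change of the striatum was −0.40, among samples with 1 set it was −0.59 and among those with 2 sets 0.50, so that its sign changed with the samples used. One isoform of 6 exons, ENSMUST00000102880, made up 96.66% of its 2608 complete reads, from 87.5% to 98.32% in the samples. A 5-exon NIC isoform had 37 reads and was found in every group. Of the ISM reads, 68.3% were a single-exon form of 2117 nt, the length of the last exon (chr11:17198259-17200375). The ISM share was 62.5% in striatum NT 2, from 48 gene reads, and 3.38% to 27.78% in the other samples, and the genotypes were not called different in it (edgeR, adjusted p = 0.9999 in the cortex and 1 in the striatum).

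Rcan1, the inhibitor that NFAT induces (ENSMUSG00000022951, chr16:92391953-92470867, minus strand), had 478 reads. It was at 53.16, 69.23, 73.2 and 70.52 CPM in cortex NT and at 41.28, 49.46, 54.57 and 58.08 CPM in cortex R6/2. NT was higher but for its first sample, which lay below 2 R6/2 samples, and the log2 fold change was −0.38 ± 0.23. In the striatum the values were 45.36, 96.11, 28.41 and 10.44 CPM in NT and 30.88, 27.21, 39.22 and 22.76 CPM in R6/2 (−0.72 ± 0.47). This rested on striatum NT 2, since the log2 fold change was −0.05 without it, 0.23 among samples with 1 set of counts and −1.12 among those with 2 sets.

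Its 2 main isoforms, each of 4 exons, start at different first exons. ENSMUST00000060005, from the upstream start, held 410 of 460 complete reads and ENSMUST00000023672, from the downstream start, held 33. The downstream form is the one known to respond to NFAT. It had 1, 3, 1 and 5 reads in cortex NT, 2, 0, 2 and 3 in cortex R6/2, 3, 3, 3 and 1 in striatum NT, and 0, 2, 2 and 2 in striatum R6/2. Its share of complete reads over a group, 10.99%, 7.292%, 5.556% and 6.452% in the same order, came from 6 to 10 reads a group, and a difference between genotypes was not detectable at this depth. The 250 bases before each start are shown because they differ in the letters of the NFAT core site, GGAAA or TTTCC on the other strand, which are in capitals (RefSeq, GRCm38.p6, minus strand, 5′ to 3′).
Upstream start, chr16:92466170-92466419: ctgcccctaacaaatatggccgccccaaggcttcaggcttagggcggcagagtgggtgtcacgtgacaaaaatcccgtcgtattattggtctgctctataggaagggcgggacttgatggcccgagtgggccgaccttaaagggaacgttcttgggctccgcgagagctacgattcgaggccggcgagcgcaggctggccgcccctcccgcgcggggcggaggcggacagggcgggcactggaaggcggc
Downstream start, chr16:92400079-92400328: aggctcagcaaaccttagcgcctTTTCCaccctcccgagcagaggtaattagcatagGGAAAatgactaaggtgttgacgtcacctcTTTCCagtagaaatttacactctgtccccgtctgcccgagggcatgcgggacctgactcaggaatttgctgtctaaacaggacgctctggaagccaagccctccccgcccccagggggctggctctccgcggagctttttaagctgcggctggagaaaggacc
The upstream window, 23 bases from the annotated start of ENSMUST00000060005, held no match and the downstream window, 1 base from the start of ENSMUST00000023672, held 3. Among windows of other members, that of Ppp3cb also held 3, those of Rcan2 held 0 to 2 and that of Ppp3r1 held 0. Over 32851 mouse promoter windows of this length, 55.57% held at least 1 match and 6.392% at least 3. In these brains 89.13% of complete reads thus came from the start without the letters.

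Rcan2, a paralog of Rcan1 that also binds calcineurin (ENSMUSG00000039601, chr17:43801351-44039516, plus strand), had 987 reads and was the member whose regions were apart in both genotypes. The cortical values were 35.44, 78.78, 41.83 and 72.66 CPM in NT and 53.67, 42.72, 48.51 and 70.7 CPM in R6/2. The striatal values were 206.5, 104.4, 143.7 and 172.3 CPM in NT and 112.7, 114.7, 117.7 and 126.5 CPM in R6/2. Every striatal sample lay above every cortical sample in both genotypes, with a log2 fold change of striatum over cortex of 1.52 ± 0.27 in NT and 1.28 ± 0.26 in R6/2. Between genotypes the ranges overlapped in both regions (−0.17 ± 0.27 in the cortex and −0.40 ± 0.23 in the striatum), although 3 of the 4 striatal NT samples lay above all R6/2 samples.

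The reads of Rcan2 were divided between ENSMUST00000044895, of 5 exons (328 of 613 complete reads), and ENSMUST00000044792, of 4 exons (231 reads). In the striatum the 4-exon isoform made up 34.03%, 33.33%, 28.57% and 14.29% of complete reads in NT and 37.5%, 42.71%, 36.54% and 41.67% in R6/2. The groups did not overlap, with means of 27.55 ± 9.172% and 39.6 ± 3.04% (SD, n = 4 each). The lowest value came from 7 complete reads. The gap between the groups was narrow. The highest NT share was 49 of 144 reads (34.03%), and the lowest R6/2 share was 38 of 104 reads (36.54%). No intervals are given for these shares, and how often isoforms separate in this way over all genes was not counted. No difference between genotypes is drawn from the separation. Pooled over samples the 4-exon isoform was at 32.76% of 293 and 39.41% of 236 reads. The 5-exon isoform overlapped between the striatal genotypes, at 56.14% to 85.71% in NT and 45.83% to 58.33% in R6/2. In the cortex, with 3 to 20 complete reads a sample, the 4-exon isoform was at 33.33% to 66.67% in NT and went from 3 of 10 to 11 of 15 reads in R6/2, which overlap. Over all genes, isoform usage differed between genotypes in 0.36% of 3058 genes in the cortex and in 0.0676% of 4437 in the striatum (diffSpliceDGE with gene-level Simes p values, adjusted p under 0.05).

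Many reads of Rcan2 were incomplete, 37.89% in all. Of its ISM reads 89.57% were one single-exon form of 2544 nt, the length of the last exon (chr17:44036973-44039516). In the striatum the ISM share was 16.76% and 17.99% in the NT samples and 18.64% and 15.45% in the R6/2 samples with 2 sets of counts, and 67.44% and 78.79% in the NT samples and 67.12% and 76.0% in the R6/2 samples with 1 set. It was 39.39% to 67.65% in cortex NT and 47.37% to 69.23% in cortex R6/2. The share of the last exon alone thus went with the number of sets, and with the shorter mean isoform length of the samples with 1 set. No difference between genotypes was called (edgeR, adjusted p = 0.9999 in the cortex and 1 in the striatum). That test called no gene in either region, so that the missing call does not show equal shares.

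**Figure D3:**
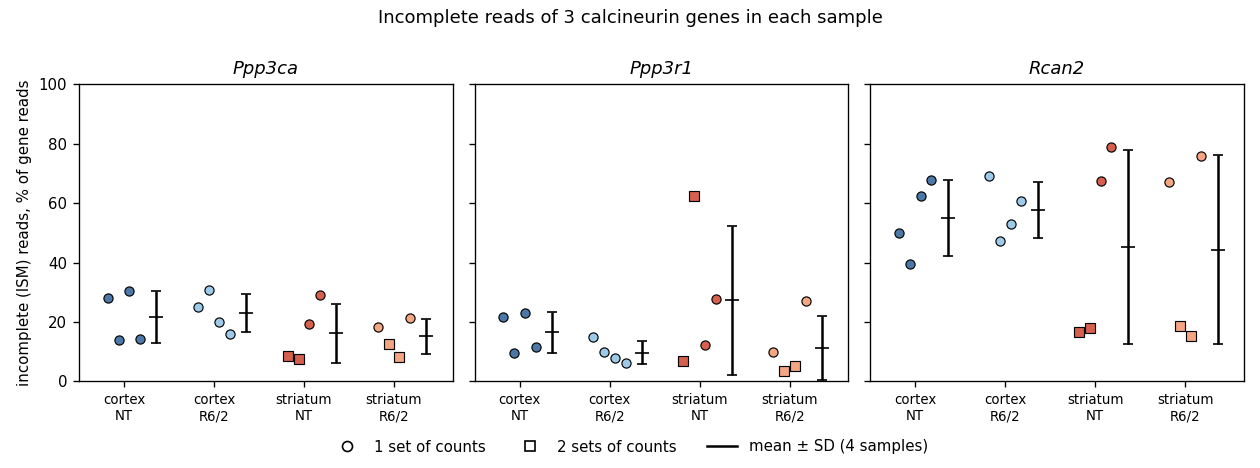
Share of gene reads that are incomplete splice matches (percent) in each sample for Ppp3ca, Ppp3r1 and Rcan2, with circles for samples with 1 set of counts and squares for samples with 2 sets. For Rcan2 the 4 striatal samples with 2 sets lie at 15.45% to 18.64% and the other 4 at 67.12% to 78.79%, in both genotypes.

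Among the 6 genes, those with regional differences in NT mice were Ppp3ca and Rcan2, with more reads in the striatum, and Ppp3cc, with more in the cortex. On a scale common to the 16 samples, Ppp3ca was highest in striatum NT (1092 ± 556.4 CPM), followed by cortex NT (516.6 ± 146.3), striatum R6/2 (395.7 ± 113.4) and cortex R6/2 (265.2 ± 31.62). Striatum NT lay above all other samples, whereas cortex NT and striatum R6/2, and striatum R6/2 and cortex R6/2, overlapped. The log2 fold change of striatum over cortex was 1.08 ± 0.31 in NT and 0.58 ± 0.31 in R6/2. Rcan2 followed the order striatum NT (162.2 ± 48.89 CPM), striatum R6/2 (122.9 ± 8.591), cortex NT (54.32 ± 20.02) and cortex R6/2 (50.87 ± 11.62), in which the neighbours overlapped within a region only. Ppp3cc was at 25.41 ± 5.256 CPM in cortex NT and 20.42 ± 11.03 in cortex R6/2, against 7.694 ± 2.414 in striatum NT and 7.402 ± 5.67 in striatum R6/2, and the R6/2 regions overlapped. Ppp3r1, at group means of 275.5 to 327.9 CPM, and Ppp3cb, at 7.892 to 16.2, overlapped between all groups that follow each other in order. For Rcan1, at 31.55 to 63.42, the same held, with the widest spread in striatum NT (10.16 to 103.8 CPM).

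Read against all genes, 1 of the 5 members that passed the filter was called in the cortex (Ppp3ca), where 3.27% of 6121 genes were called, 0.457% higher and 2.81% lower in R6/2 (edgeR quasi-likelihood test, adjusted p under 0.05). None of 4 was called in the striatum, where 0.509% of 7658 genes were called, 0% higher and 0.509% lower (760 genes had an unadjusted p under 0.05, and DESeq2 called 111). Between regions 3 of 5 were called in NT (Ppp3ca, Ppp3cc and Rcan2) beside 14.9% of 7390 genes, and 1 of 5 in R6/2 (Rcan2) beside 11.4%. None of 5 was called for an effect of genotype that differs between regions, as 1 gene of 7390 (0.0135%) was, with 193 genes at an unadjusted p under 0.05. These counts stand beside the share of all genes as a description, since the same reads chose the members. The median log2 fold change of the members was −0.26 in the cortex and −0.37 in the striatum, beside 0.01 and −0.01 over all genes tested.

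Further genes of the pathway, 37 in 4 lists, were tested as non-members. The lists were made with earlier results of these data known, so that the counts and p values below are a description. In the cortex 22 passed the filter and 4 of them were lower and 0 higher in R6/2 mice. In the striatum 24 passed and 2 were lower and 0 higher. The median log2 fold change of these tested pathway genes was −0.11 in the cortex and −0.17 in the striatum. Over all genes tested it was 0.01 and −0.01. Ppp1r1b, which encodes DARPP-32, the dopamine-regulated phosphatase inhibitor that calcineurin dephosphorylates, fell from 195.6 ± 38.04 to 37.15 ± 7.051 CPM in the cortex (log2 fold change −2.38 ± 0.22, edgeR adjusted p = 1.612e-06). In the striatum it fell from 3721 ± 1189 to 833.5 ± 227.7 CPM (−2.16 ± 0.33, edgeR adjusted p = 0.0325). It is one of the 9 striatal projection neuron markers. Itpr1, the IP3 receptor that releases calcium from internal stores, fell from 148.1 ± 14.57 to 74.99 ± 7.719 CPM in the cortex (−0.99 ± 0.19, edgeR adjusted p = 0.00385) and from 225.0 ± 38.32 to 93.21 ± 16.26 CPM in the striatum (−1.27 ± 0.22, edgeR adjusted p = 0.0427). The groups of both genes did not overlap in either region. In the striatum, Ppp1r1b was no longer called under 7 of 18 other settings and Itpr1 under 11 of 17, with adjusted p from 2.404e-08 to 0.198 and from 0.000106 to 0.22.

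In the cortex, Atp2b4, a calcium pump of the plasma membrane that binds calcineurin, fell from 84.37 ± 15.93 to 38.69 ± 2.857 CPM (−1.14 ± 0.23, edgeR adjusted p = 0.00776). Akap5, which anchors calcineurin at the synapse, fell from 97.96 ± 23.58 to 53.07 ± 8.25 CPM (−0.87 ± 0.23, edgeR adjusted p = 0.0409), and was no longer called under 13 of 14 other settings (adjusted p 0.0171 to 0.15). By list, 2 of 8 tested genes among other subunits, inhibitors and anchors and 2 of 11 substrates and opposing kinases were called in the cortex, and 0 of 9 and 2 of 11 in the striatum. Of 5 NFAT genes, none passed the filter in the cortex and 1, Nfatc2, did in the striatum, where it was not called. Among the pathway genes in the fit of all 16 samples, no difference between the regions in the effect of genotype was called (edgeR adjusted p from 0.9989 to 0.9997).

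**Figure D4:**
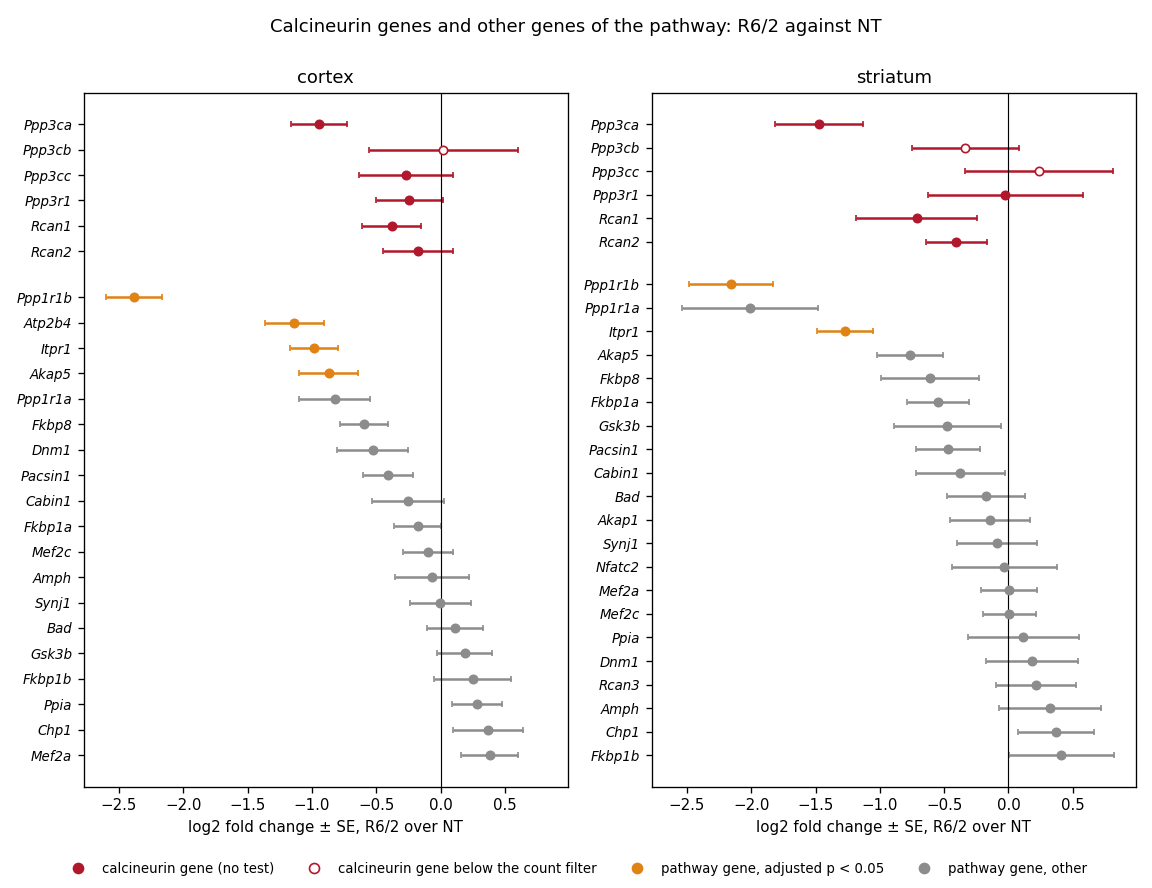
Log2 fold change of R6/2 over NT with its standard error for the 6 members and the tested genes of 3 of the 4 pathway lists, in the cortex and the striatum. Ppp1r1b lies farthest below 0 in both regions (−2.38 and −2.16), and Ppp3ca lies at −0.95 and −1.47.

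The genes whose log2 CPM followed Ppp3ca most closely over the 16 samples, among 7390 genes, were Gnb5 (a G protein beta subunit, Pearson r = 0.921, Spearman correlation 0.935), Gpr83 (a G protein-coupled receptor, 0.903 and 0.897) and Ngef (a guanine nucleotide exchange factor, 0.9 and 0.906). Without striatum NT 2 the Pearson r was 0.885, 0.882 and 0.875. The samples form 4 groups, so these values mostly describe differences between groups and carry no test. On the log2 scale Gnb5 was at 8.85 in cortex NT, 8.46 in cortex R6/2, 9.61 in striatum NT and 8.66 in striatum R6/2. Gpr83 was at 4.68, 3.89, 7.41 and 5.19, and Ngef at 8.75, 7.51, 10.2 and 8.99, in the same order, so that all 3 were highest in striatum NT and lowest in cortex R6/2. Gnb5, like Ppp3ca, was higher in cortex NT than in striatum R6/2, and Gpr83 and Ngef were lower.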

How the data were processed

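Iso-seq data of 16 samples from the cortex and striatum of R6/2 and NT mice were analyzed. RNA had been treated with a 5′-phosphate-dependent exonuclease, and cDNA was amplified by PCR without molecular identifiers, so that reads are not independent molecules. The authors made consensus reads (ccs, lima, isoseq3 refine), mapped them to mm10 with minimap2 (2.17-r941, per the submitters' processing notes), and used TranscriptClean for error correction and TALON, with Ensembl annotation, to name the isoforms. The values the authors deposited are unfiltered counts of reads per isoform, without normalization. TALON matches known isoforms by their splice junctions and leaves the ends free, so that a listed length is the annotated one. Of 20 count tables, 4 were second sets of striatal samples, which the labels describe as data of 2 replicates under 1 sample, and were summed.

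Groups were taken from the labels. Gene reads summed the Known, ISM, NIC and NNC classes. CPM, fold changes and tests are from edgeR 4.0.16 (R 4.3.3; TMM, filterByExpr, quasi-likelihood test, Benjamini-Hochberg adjustment over all genes, threshold 0.05), fitted for each region and, between regions, for all 16 samples. Isoform usage, ISM share and cassette exons (at least 10 reads of each form) were tested with diffSpliceDGE. Isoforms at 5% of complete reads in the mean of a group or, if new, with 10 reads, and up to 5 called pathway genes per region, were named. Exons and positions were from GENCODE M21 (37568 of 37726 known isoforms matched) and promoters from RefSeq. Intervals are Wilson intervals at 95% (scipy 1.17.1). For a count of 0, the share of 3 reads is the upper limit, taken over the pooled reads of a group as if these were independent. Scripts were tested on simulated data. Members and lists were chosen with earlier results of these data known. Because gene reads and isoform shares chose the members, these are given without p values. Reads are not scaled by length, so that levels are compared between samples and not between genes. Same-numbered samples did not deviate together in every pair (correlations from −0.571 to 0.618), so the numbers were not used to pair samples. Alternatives were another normalization, DESeq2 1.42.0, other filters, read classes, sets of counts, and leaving out each sample. One of the 4 pathway lists counts in the totals and is not reported gene by gene here.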

Additional observations from a re-analysis of the deposited data

Results flagged for a closer look

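Of 74 groups of 4 samples checked among the members' levels and shares, 6 held a sample whose gap to the nearest other sample was large for the group's range, while chance gives about 5% of groups. Striatum NT 2 held 1768 CPM of Ppp3ca, against 720.4 to 884.5 in the other NT samples. Striatum R6/2 3 skipped exon 13 of Ppp3ca in 15.44% of reads, against 22.89% to 23.76% in the other R6/2 samples, and was still above all NT samples. The genomic class made up 37.0% of Ppp3ca reads in cortex R6/2 3, against 48.43% to 49.73%. The other 3 rest on few reads. The ISM share of Rcan1 was 9.091% in cortex NT 4 (3 of 33 reads), with 0% in the other NT samples. The genomic share of Ppp3cb was 100% in cortex NT 3, which had no gene read of it, against 61.11% to 66.67%. The genomic share of Ppp3cc was 21.43% in cortex NT 4, with 0% in the other NT samples.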

How the results depend on the processing

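Of 154 alternative values of the members' log2 fold changes, 152 moved by less than the spread between samples. The others were Ppp3cb in the striatum, −0.70 among samples with 2 sets of counts in place of −0.34, and Rcan1 in the striatum, 0.23 among samples with 1 set in place of −0.72. Where samples spread widely this bound is loose. Ppp3r1 in the striatum, at −0.03, ran from −0.59 to 0.50 and counted as unmoved. In the cortex Ppp3r1 (up to 0.03) and Rcan2 (up to 0.01) changed sign when 1 sample was left out. All 22 alternatives for skipping of exon 13 moved by less than the spread between samples (leaving out samples, 15.4 to 18.17 points in the striatum and 2.159 to 4.979 in the cortex). Counts over all genes moved more. With ISM reads left out, 95 genes in place of 200 were called in the cortex, 13 in place of 39 in the striatum and 0 in place of 1 for the interaction, and 1 pathway gene in place of 4 (cortex) and 1 in place of 2 (striatum). In the striatum, DESeq2 called 111 genes and a fit without the filter 77, which also called 1683 in place of 1101 between NT regions. The number of sets as a term gave 339 genes in the striatum, 3 for the interaction, 2467 between NT regions, 20 in place of 3 for isoform usage, 13 in place of 0 cassette exons and 4 pathway genes. The first sets alone gave 20 genes, 0 for isoform usage and 1 pathway gene in the striatum. Known isoforms alone gave 7 in place of 11 genes of cortical isoform usage and 0 of striatal usage, for which a minimum of 20 reads gave 5. Samples with 2 sets gave 1 gene of isoform usage and 1 cassette exon in the striatum, and those with 1 set 1 exon. With the replicate block, the striatum gave 0 genes, 1 for isoform usage and 0 pathway genes, the interaction 0 and the cortex 225, with Ppp3ca at −0.91 (cortex) and −1.40 (striatum), and calls of the other counts stayed within 1.5 times. Leaving out 1 sample gave 95 to 305 genes in the cortex (95 without R6/2 3, 305 without NT 1), 3 to 44 in the striatum (3 without R6/2 1 or R6/2 2), 0 to 1 for the interaction, 865 to 1161 between NT regions, 1 to 16 and 0 to 6 for cortical and striatal isoform usage, 0 to 3 and 0 to 1 cassette exons, and 3 to 4 and 0 to 2 pathway genes. The cause of these moves was not tested. Of 89 alternative values for the called pathway genes, 58 kept the call, 31 lost it and none changed direction. Depth limits Ppp3cb and Ppp3cc, with 0 to 23 reads a sample, the downstream isoform of Rcan1 and cortical isoforms of Rcan2.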
